A study of Mus musculus with 20 samples.

Results

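Polyamines are small positively charged molecules that every cell makes from ornithine and methionine, and their supply is set largely at the level of translation. Ornithine decarboxylase, encoded by Odc1, makes putrescine, which the spermidine synthase Srm and the spermine synthase Sms extend with aminopropyl groups supplied through the S-adenosylmethionine decarboxylase Amd1. The antizymes Oaz1 and Oaz2 bind ornithine decarboxylase and send it to the proteasome, the antizyme inhibitor Azin1 takes antizyme away from it, and the acetyltransferase Sat1 marks spermidine and spermine for export or breakdown. When polyamines are plentiful, ribosomes shift frame on the antizyme mRNAs and read through an early stop, while a short reading frame upstream of Amd1 holds ribosomes back.

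The 8 mRNAs of this circuit, Oaz1, Oaz2, Odc1, Amd1, Azin1, Srm, Sms and Sat1, were taken by name from a table of 45700 genes, in which each has 1 row. They were measured in mouse brain in 20 libraries, of total cytoplasmic RNA (all fractions of a sucrose gradient pooled) and of polysomal RNA (only the fractions with polysomes), so the total pool includes the polysomal mRNA. SMA mice of the Taiwanese line (Smn-/-; SMN2tg/0), a model of severe spinal muscular atrophy with no mouse Smn and a human SMN2 transgene, were compared with control littermates (Smn-/+; SMN2tg/0), all on a congenic FVB background. Brains were taken at postnatal day 5 (early-symptomatic, 2 controls and 2 SMA mice per fraction) or at day 7 (late-symptomatic, 3 controls and 3 SMA mice per fraction). The labels do not say whether total and polysomal libraries with the same number come from the same mouse. Both genotypes carry the transgene, the Smn deletion is in every cell rather than in chosen cell types, whole brain mixes all of its cell types, and fewer cells of a type and less RNA per cell cannot be told apart in it. Values are fragments scaled to transcript length and to the mapped fragments of the library (FPKM), which allow levels to be set side by side between genes, but the number of reads behind each value is unknown.

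All 8 mRNAs were well expressed and passed the filter of a mean of at least 1 FPKM that left 15247 genes for testing. On GRCm38 they lie at chr10:80826655-80829290 (Oaz1), chr9:65668000-65690300 (Oaz2), chr12:17544872-17551502 (Odc1), chr10:40287457-40302188 (Amd1), chr15:38487429-38519266 (Azin1), chr4:148591502-148594993 (Srm), chrX:157443854-157492287 (Sms) and chrX:155213131-155216449 (Sat1). Amd1, Azin1, Sms and Sat1 are on the minus strand and the other 4 on the plus strand. No other protein-coding gene of the table overlaps a member. The Odc1 locus contains the small nucleolar RNA Gm22748, with a mean of 112 FPKM, and how reads were split between it and Odc1 is not known.

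Frameshift windows and upstream reading frames of these mRNAs were read from Gencode transcripts of the same build. The antizyme frameshift windows are shown because they are the defining element of both antizyme mRNAs. They are coding sequence, on the plus strand at chr10:80828280-80828312 for Oaz1 and chr9:65686257-65686289 for Oaz2, with the stop codon that the shifted ribosome passes in capitals.
Oaz1 frameshift window: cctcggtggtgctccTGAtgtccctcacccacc
Oaz2 frameshift window: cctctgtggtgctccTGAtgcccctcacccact
The windows are identical at 30 of 33 positions. The reading frame before the stop is 68 codons long in Oaz1 and 32 codons long in Oaz2, and the annotation skips 1 base at the stop, after which the frame runs for a further 159 codons and 157 codons.

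Upstream reading frames were searched as an ATG in the leader, the part of the annotated main transcript before the coding sequence. Frames that begin at any other codon were not searched. The leaders of 5 of the 8 mRNAs had at least 1 upstream ATG (Odc1 2, Amd1 1, Azin1 3, Sms 4, Sat1 2), and those of Oaz1, Oaz2 and Srm had none, against 53.0% of the 12969 tested protein-coding genes with an annotated leader. The frames of Amd1 (chr10:40302155-40302175, minus strand), Odc1 (chr12:17544921-17544947, plus strand) and Sat1 (chrX:155216271-155216285, minus strand) are shown because their polysome values can be set against each other, with the start and stop codons in capitals.
Amd1 upstream frame: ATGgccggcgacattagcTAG
Odc1 first upstream frame: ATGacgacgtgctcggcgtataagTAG
Sat1 first upstream frame: ATGgtgccagccTGA
The Amd1 frame has 6 codons before its stop and begins 317 nt before the main start, within a leader of 328 nt. The Odc1 frame has 8 codons and the Sat1 frame 4 codons. A further Sat1 frame of 44 codons and a Sms frame of 30 codons, not printed, run past the start of the coding sequence. A match describes the letters of the transcript and does not show that ribosomes use the frame.

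The 8 mRNAs spanned more than an order of magnitude in level, with Oaz1 at the top and Amd1 at the bottom in every group. In total RNA of day 7 controls the mean FPKM was 313 ± 40.0 (SD, n = 3) for Oaz1, 132 ± 5.50 for Azin1, 94.0 ± 1.14 for Oaz2 and 76.7 ± 0.748 for Sms. Below these came Srm at 31.5 ± 1.10, Sat1 at 29.5 ± 1.84, Odc1 at 25.6 ± 2.46 and Amd1 at 20.4 ± 1.15. Neighbours in this order did not overlap between libraries except Srm with Sat1 and Sat1 with Odc1. Oaz1 stood above 97.9% of tested genes in that group and Amd1 above 67.8%. The antizyme mRNA was higher than the mRNA of the enzyme it targets in every library. The ratio of Oaz1 to Odc1 FPKM in total RNA ran from 6.96 to 8.52 in the 4 libraries of day 5 and from 11.1 to 16.1 in the 6 of day 7.

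**Figure D1:**
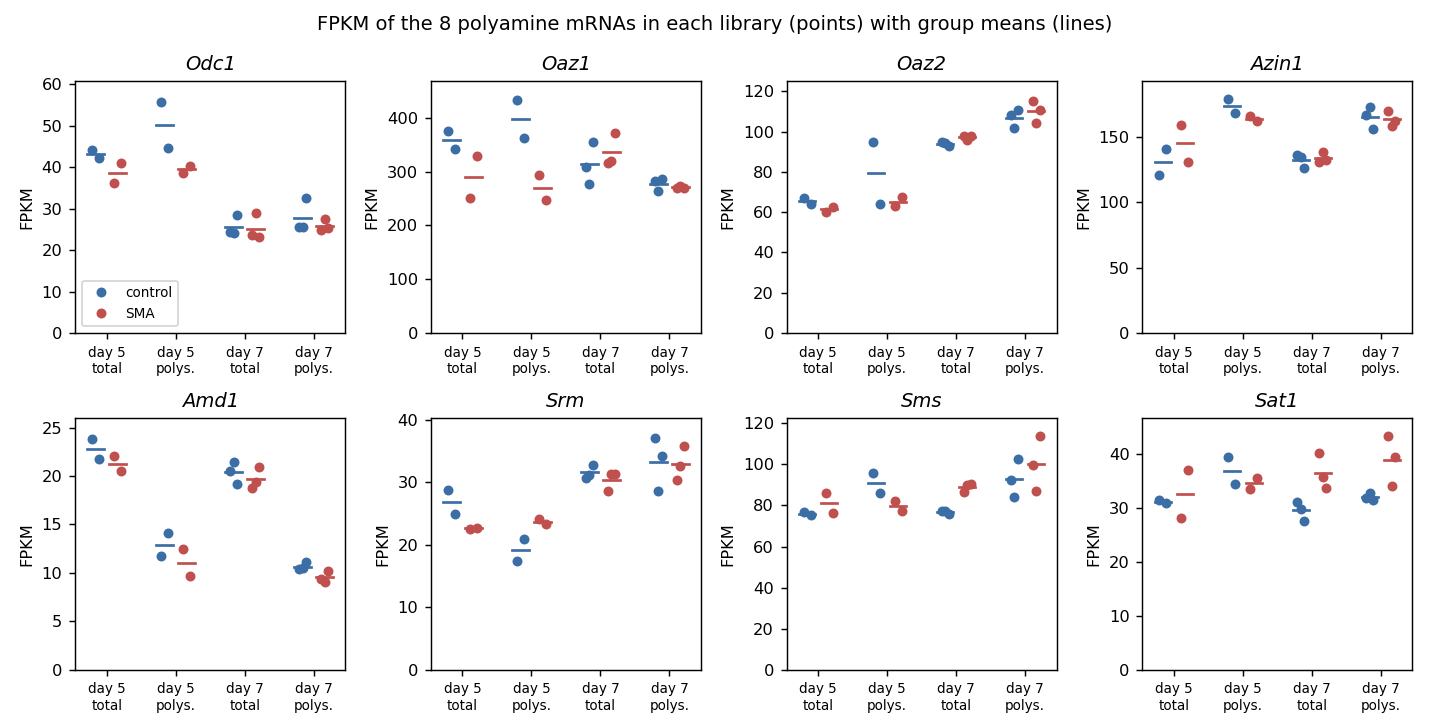
FPKM (vertical axes, from 0) of the 8 polyamine mRNAs in each library, by day and RNA fraction (polys., polysomal), with controls in blue and SMA mice in red. Points are libraries and short lines group means. Amd1 drops from total to polysomal RNA at both days, Odc1 is lower and Oaz2 higher at day 7 than at day 5, and the genotypes lie close together in most panels.

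Polysome association was compared as polysomal against total RNA within each genotype and day, with genes called at an adjusted p under 0.05. Amd1 was the least polysome-associated member. Its polysomal level was 0.488 to 0.567 times its total level in the 4 groups, the lowest ratio of the 8 mRNAs in each. Both fractions are scaled to their own library, so the values are relative to all other RNA.

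In day 7 controls Amd1 measured 20.5, 21.5 and 19.2 FPKM in total RNA and 10.4, 10.5 and 11.1 FPKM in polysomal RNA. In day 7 SMA mice it measured 18.8, 19.4 and 20.9 FPKM in total RNA and 9.39, 9.07 and 10.2 FPKM in polysomal RNA. At day 5 the values were 23.8 and 21.8 in total and 11.7 and 14.1 in polysomal RNA of controls, and 22.1 and 20.5 in total and 12.4 and 9.67 in polysomal RNA of SMA mice. Every polysomal library was below every total library. The log2 ratio was -0.93 (SE 0.06, adjusted p = 2.46e-05) in day 7 controls and -1.04 (SE 0.06, adjusted p = 1.41e-05) in day 7 SMA mice, where 3.78% and 3.61% of tested genes had a lower one. At day 5 it was -0.82 (SE 0.16, adjusted p = 0.0626) and -0.95 (SE 0.16, adjusted p = 0.0842), which did not pass with 2 mice per group but was called with a correction for transcript length (adjusted p = 0.0381 and 0.0486) and with 1 model over all libraries. Markers of erythroid cells were also lower in polysomal RNA at day 7, with 3 of 6 called lower in controls (median log2 ratio -0.68) and 4 of 6 in SMA mice (median -0.92), and no other marker list had a gene called lower there. All tested genes called there, in either direction, were 13.6% in controls and 15.3% in SMA mice. The difference between genotypes in this ratio was -0.13 (95% interval -0.68 to 0.42) at day 5 and -0.10 (-0.30 to 0.10) at day 7, and neither passed the test.

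Of the antizymes and the antizyme inhibitor, Azin1 and Oaz2 were higher in polysomal RNA at day 7. Azin1 measured 137, 134 and 126 FPKM in total and 167, 173 and 156 FPKM in polysomal RNA of controls, a log2 ratio of 0.32 (SE 0.05, adjusted p = 0.00323). In SMA mice its log2 ratio was 0.29 (SE 0.05, adjusted p = 0.00531), and the call was lost without SMA replicate 1 or 3 (adjusted p = 0.0640 and 0.0524). Its ratio exceeded that of 92.7% of tested genes in controls and 89.3% in SMA mice. Oaz2 rose less, with log2 ratios of 0.18 in both genotypes (SE 0.04, adjusted p = 0.0215 and 0.0221). Both Oaz2 calls were lost with quantile normalization (log2 0.10 in controls and 0.09 in SMA mice) and with 1 model over all libraries (adjusted p = 0.285 and 0.281). The control call was also lost without control replicate 1 or 3 or SMA replicate 3 (log2 0.15 to 0.18), and the SMA call without SMA replicate 1 or 3 (log2 0.15 and 0.18).

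Oaz1, whose frameshift window is nearly that of Oaz2, was not called in this comparison at either day. Its log2 ratio at day 7 was -0.17 in controls (adjusted p = 0.261) and -0.31 in SMA mice (SE 0.09, adjusted p = 0.0524), and the 3 polysomal libraries of SMA mice (270, 273 and 269 FPKM) lay below their total libraries (316, 320 and 371 FPKM). The SMA value is close to the threshold, and Oaz1 was called lower with a filter at 5 FPKM (adjusted p = 0.0430), with a correction for transcript length (adjusted p = 0.0207) and without control replicate 2 or 3 (adjusted p = 0.0401 and 0.0362). The enzymes Odc1, Srm, Sms and Sat1 had log2 ratios at day 7 between 0.04 and 0.27, and none passed. Odc1, whose leader also holds upstream frames, had ratios of 0.11 (95% interval -0.16 to 0.38) in controls and 0.04 (-0.23 to 0.32) in SMA mice. Over all tested protein-coding genes the median log2 ratio in day 7 controls was 0.06 for the 6880 with an upstream ATG and 0.09 for the 6089 without. The part of upstream frames in the ratios of Amd1 and the other members was not tested.

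In counts, 3 of the 8 members were called at day 7 in each genotype, Azin1 and Oaz2 higher and Amd1 lower, against 13.6% of all tested genes in controls and 15.3% in SMA mice. At day 5 no member was called, against 2.82% of genes in controls and 0.925% in SMA mice. At an unadjusted p under 0.05, Amd1, Srm, Azin1 and Sms differed in day 5 controls and Amd1 in day 5 SMA mice. At that threshold 4222 of the 15247 tested genes differed in day 5 controls and 2695 in day 5 SMA mice. The median log2 ratio of the 8 was 0.11 in day 7 controls and 0.10 in day 7 SMA mice, beside 0.05 over all tested genes in each.

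**Figure D2:**
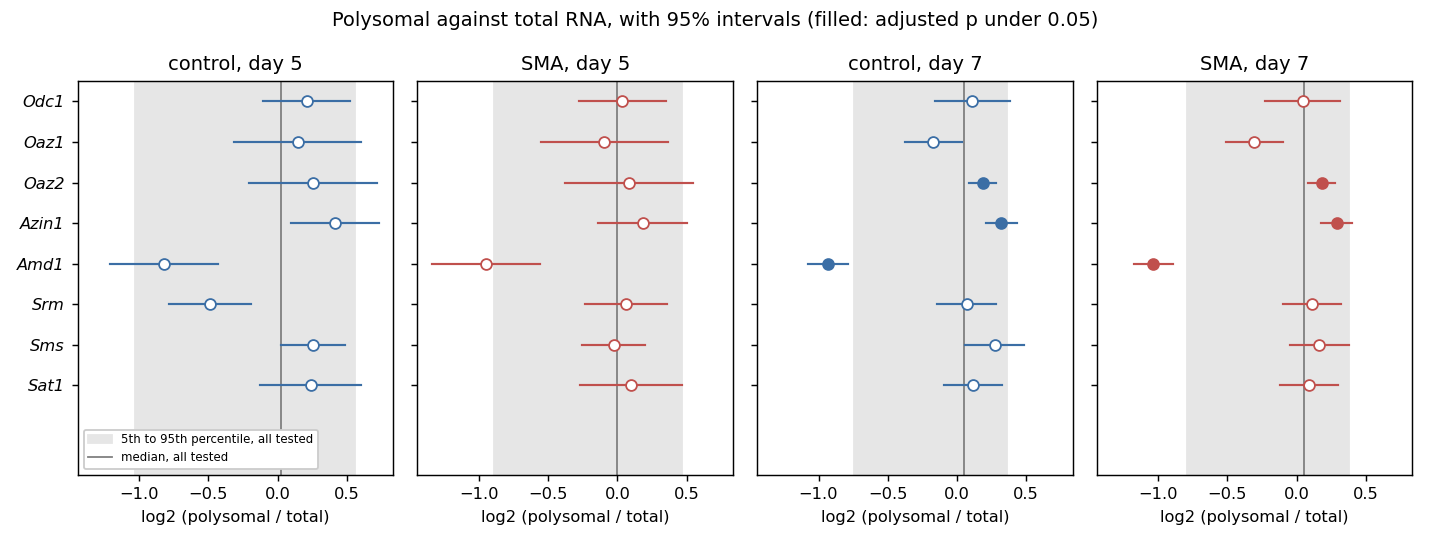
Log2 ratio of polysomal to total FPKM (horizontal axis) for each member in the 4 combinations of genotype and day. Points are estimates with 95% intervals, filled where the adjusted p was under 0.05, the grey band spans the 5th to 95th percentile of all tested genes and the grey line is their median. Amd1 lies at the lower end or outside of the band in each panel, at -0.93 in day 7 controls and -1.04 in day 7 SMA mice.

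SMA mice were then compared with controls within each day and fraction, the question of the study, with genes called at an unadjusted p under 0.05 as the study did. From 0 to 2 of the 8 members were called in each comparison. No member was called in total RNA at day 5, against 8.25% of tested genes, and Oaz1 alone in polysomal RNA at day 5, against 12.5%. At day 7 Sms and Sat1 were called in total RNA, against 9.54%, and Sat1 alone in polysomal RNA, against 10.7%. None of these passed after adjustment over all tested genes. With 2 or 3 libraries per group a two-sided exact permutation test on a single gene could not go below p = 0.333 or 0.1, so the tests rest on the spread shared across genes in limma, and they measure only the spread between these mice.

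Spermine synthase, Sms, rose in total RNA of late-symptomatic SMA brains. It measured 77.2, 77.1 and 75.9 FPKM in controls and 86.4, 90.0 and 90.4 FPKM in SMA mice. All SMA libraries were above all control libraries, a 1.16-fold difference (log2 0.21, SE 0.03, adjusted p = 0.147). In polysomal RNA of the same stage the groups overlapped, at 92.6, 84.0 and 103 FPKM in controls and 99.6, 87.2 and 114 FPKM in SMA mice, and the log2 difference was 0.10 (95% interval -0.21 to 0.42).

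Sat1, the acetyltransferase of polyamine catabolism, rose in both fractions at day 7. In total RNA it measured 31.2, 29.9 and 27.6 FPKM in controls and 40.2, 35.7 and 33.7 FPKM in SMA mice, a 1.23-fold difference (log2 0.30, SE 0.08, adjusted p = 0.380). In polysomal RNA it measured 31.8, 32.9 and 31.4 FPKM in controls and 43.3, 34.0 and 39.4 FPKM in SMA mice, a 1.21-fold difference (log2 0.27, SE 0.09, adjusted p = 0.419). The groups did not overlap in either fraction. At day 5 Sat1 was not called, with log2 differences of 0.05 in total and -0.09 in polysomal RNA. The day 5 total value ran from -0.15 to 0.24 with single libraries left out. It was called higher with a correction for transcript length (log2 0.25) and without SMA replicate 1 (log2 0.24). The latter run leaves a single SMA library, from a male, and takes its spread from the controls alone. The difference between days was not called in total RNA (adjusted p = 0.548) or polysomal RNA (adjusted p = 0.354). The day 7 polysomal call was lost when any single library other than SMA replicate 2 was left out, with log2 differences between 0.19 and 0.29. It was also lost with same-numbered libraries treated as a block (log2 0.27, and 0.25 with the length correction). In this comparison that block joins control and SMA mice that share only a number.

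Sms and Sat1 are X-linked, and the day 7 groups differ in sex by their Y-linked transcripts, with 1 male and 2 females among controls and 2 males and 1 female among SMA mice. For Sms in total RNA the male control (75.9 FPKM) lay below both male SMA mice (86.4 and 90.0) and the female controls (77.2 and 77.1) below the female SMA mouse (90.4). Sat1 in total RNA showed the same order within each sex, at 27.6 against 40.2 and 35.7 FPKM in males and 31.2 and 29.9 against 33.7 FPKM in females. At day 5 both controls and SMA replicate 2 were male and SMA replicate 1 was female. There Sms in total RNA measured 76.8 and 75.4 FPKM in controls, 85.9 FPKM in the female SMA mouse and 76.5 FPKM in the male. Sat1 measured 31.5 and 30.8 FPKM in controls, 28.1 FPKM in the female SMA mouse and 37.0 FPKM in the male. The part of sex in these differences was not tested.

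Oaz1 was lower in polysomal RNA of early-symptomatic SMA brains. It measured 432 and 362 FPKM in controls and 294 and 247 FPKM in SMA mice, a 0.681-fold level (log2 -0.56, SE 0.17, adjusted p = 0.392). In total RNA of the same stage it measured 376 and 342 FPKM against 252 and 328 FPKM, which was not called (log2 -0.32, 95% interval -0.87 to 0.23). The total value ran from -0.51 to -0.13 with single libraries left out. It was called lower with 1 model over all libraries and without SMA replicate 2 (log2 -0.51). The latter run leaves a single SMA library and takes its spread from the controls alone. At day 7 the polysomal levels were 282, 264 and 286 FPKM in controls and 270, 273 and 269 FPKM in SMA mice, so the groups overlapped (log2 -0.03, 95% interval -0.15 to 0.08). The difference between days was 0.52 (SE 0.14, adjusted p = 0.287) and was not called. The day 5 call was lost with quantile normalization (log2 -0.39), with no filter on low values (log2 -0.56) and without control replicate 1, SMA replicate 1 or SMA replicate 2 (log2 -0.43, -0.68 and -0.43).

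Of the remaining members, Odc1 measured 55.7 and 44.6 FPKM in day 5 polysomal RNA of controls and 38.6 and 40.3 FPKM in that of SMA mice, which was not called (log2 -0.34, 95% interval -0.75 to 0.07). At day 7 the Odc1 difference was -0.03 in total RNA (95% interval -0.33 to 0.27) and -0.10 in polysomal RNA (-0.38 to 0.19). Azin1 differed by 0.02 (-0.09 to 0.13) and -0.01 (-0.15 to 0.12) at day 7, and Oaz2 by 0.05 (-0.01 to 0.11) and 0.04 (-0.10 to 0.18). These intervals are narrow enough to leave out differences of 1.1-fold in total RNA for both. Amd1 and Srm were not called in any of the 4 comparisons. Other settings added calls at day 5. Without SMA replicate 2, Odc1 (log2 -0.25) and Sms (log2 0.17) were called in total RNA. Without control replicate 2, Odc1 (log2 -0.50), Oaz2 (log2 -0.54) and Srm (log2 0.45) were called in polysomal RNA. Each of these runs leaves a single library in a group, so its spread comes from the other group alone. The SMA library left in total RNA is from a female, and both controls are male. At day 7 Amd1 was called lower in polysomal RNA without SMA replicate 3 (log2 -0.20) and with no filter on low values or no trend in the variance (log2 -0.15), and Oaz2 higher in total RNA with no filter (log2 0.05). The median log2 difference of the 8 members was -0.10 and -0.21 in total and polysomal RNA at day 5 and 0.03 and -0.01 at day 7, beside medians over all tested genes between -0.01 and 0.01.

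Translational efficiency (TE) was taken as the polysomal level relative to the total level, and its change as the interaction of genotype and fraction. Srm was the only member called, at day 5, against 2.32% of tested genes, and no member was called at day 7, against 2.07%. Oaz2 was called lower at day 5 without control replicate 2 (log2 -0.42). Spermidine synthase mRNA in controls was lower in polysomal than in total RNA at day 5, at 17.3 and 20.9 FPKM against 28.8 and 24.9 FPKM, whereas in SMA mice it measured 24.1 and 23.2 FPKM in polysomal and 22.6 and 22.7 FPKM in total RNA. The change in TE was 0.55 on the log2 scale (SE 0.17, adjusted p = 1.0). The call was lost with a correction for transcript length (log2 0.52) and with same-numbered libraries treated as a block (log2 0.55). It was also lost without control replicate 1 (log2 0.31), SMA replicate 1 (log2 0.52) or SMA replicate 2 (log2 0.58). At day 7 the change in TE was 0.04 (95% interval -0.26 to 0.34).

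**Figure D3:**
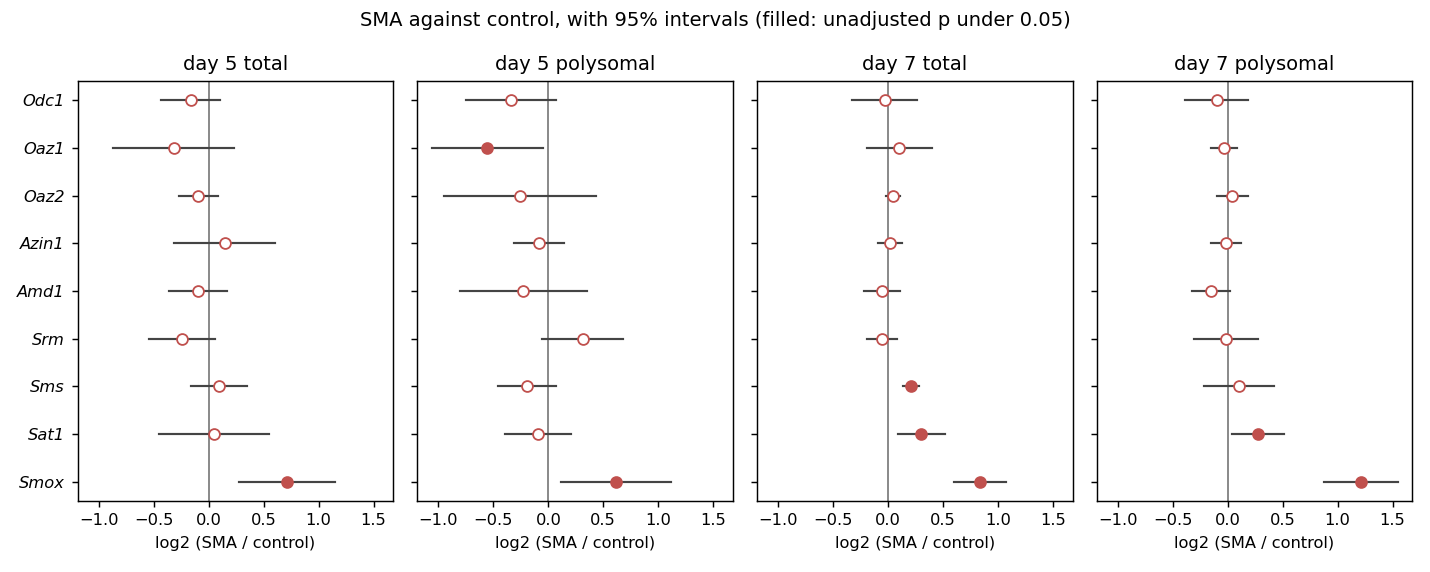
Log2 ratio of SMA to control FPKM (horizontal axis) for the 8 members and the spermine oxidase Smox, by day and fraction. Points are estimates with 95% intervals, filled where the unadjusted p was under 0.05. Most members lie on or near 0 at day 7, Sms (0.21) and Sat1 (0.30) lie to the right in total RNA, and Smox lies to the right in all 4 panels, up to 1.21.

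A list of 28 further genes of polyamine metabolism was examined beside the members, 25 of which passed the filter. Of these, Smox, the oxidase that turns spermine back into spermidine, was called in all 4 comparisons of SMA with control, each time higher in SMA mice. In total RNA at day 7 it measured 21.7, 18.3 and 20.1 FPKM in controls and 34.1, 39.5 and 34.0 FPKM in SMA mice, a 1.79-fold difference (log2 0.84, SE 0.09, adjusted p = 0.102). In polysomal RNA at day 7 it measured 18.9, 15.1 and 14.1 FPKM against 39.4, 38.7 and 33.2 FPKM, a 2.32-fold difference (log2 1.21, SE 0.13, adjusted p = 0.141). All SMA libraries were above all control libraries in both fractions.

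The same held at day 5. Smox measured 24.2 and 20.7 FPKM in controls and 33.7 and 40.3 FPKM in SMA mice in total RNA (log2 0.72, SE 0.14, adjusted p = 0.551). In polysomal RNA it measured 28.9 and 21.8 FPKM against 37.6 and 39.3 FPKM (log2 0.61, SE 0.17, adjusted p = 0.386). The total call was lost without control replicate 2 (log2 0.60) and the polysomal call without SMA replicate 1 or 2 (log2 0.64 and 0.58). The change in TE of Smox was -0.10 at day 5 and 0.37 at day 7 (95% interval -0.01 to 0.76), and neither was called. The day 7 value was called higher when libraries were scaled to equal medians (log2 0.37) and without control replicate 1 (log2 0.44). It was also called higher with same-numbered libraries treated as a block (log2 0.37, and 0.36 with the length correction).

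Between genotypes, 1 to 4 genes of the list were called in each comparison. Counting Smox, 2 genes were higher and 1 lower in total RNA at day 5, 2 higher and 2 lower in polysomal RNA at day 5, 1 higher and none lower in total RNA at day 7, and 2 higher and 1 lower in polysomal RNA at day 7. These are 3, 4, 1 and 3 of 25 genes, beside 8.25%, 12.5%, 9.54% and 10.7% of all tested genes. Slc18b1, a vesicular polyamine transporter, was higher in total RNA at day 5 (log2 0.49, SE 0.09) and Mtap, which salvages the methylthioadenosine left by both synthases, lower (log2 -0.42, SE 0.12). Apip, a later enzyme of the same salvage route, was lower in polysomal RNA at day 5 (log2 -0.57, SE 0.06) and at day 7 (log2 -0.38, SE 0.11). Mat2a, which makes S-adenosylmethionine, was higher in day 5 polysomal RNA (log2 0.26, SE 0.07) and its partner Mat2b lower (log2 -0.28, SE 0.09). Paox, the peroxisomal polyamine oxidase, was higher in day 7 polysomal RNA (log2 0.30, SE 0.10). None of these 6 genes passed after adjustment (adjusted p between 0.190 and 0.551), and no gene of the list was called for the change in TE.

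In polysome association Mat2a was the counterpart of Amd1 in the list. Its log2 ratio of polysomal to total RNA was -0.52 (adjusted p = 0.0232) in day 5 controls, -0.31 (adjusted p = 0.00404) in day 7 controls and -0.28 (adjusted p = 0.00688) in day 7 SMA mice. Amd2, a near copy of Amd1, was also lower in polysomal RNA at day 7 (log2 -0.87 in controls and -0.54 in SMA mice, adjusted p = 0.000843 and 0.0102), but at 0.59 to 1.54 FPKM it is close to the filter and shares sequence with Amd1. The transporters Atp13a2 and Slc3a2 were higher in polysomal RNA of day 7 controls (log2 0.25 and 0.27, adjusted p = 0.0426 and 0.0482), and Atp13a2 also in SMA mice (log2 0.27, adjusted p = 0.0273). No further gene of the 25 was called in these comparisons.

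Other mRNAs known for upstream frames or frameshifting gave a list of 13, of which 11 passed the filter. Rtl1, a retrotransposon-derived gene, had log2 ratios of polysomal to total RNA of -1.81 (adjusted p = 0.00260) in day 7 controls and -1.87 (adjusted p = 0.00217) in day 7 SMA mice, below Amd1. The stress factor Ddit3 was lower on polysomes in day 7 SMA mice (log2 -0.50, adjusted p = 0.00950) and the tRNA synthetase Eprs higher in day 7 controls (log2 0.22, adjusted p = 0.0326). The other mRNAs of this list were not called on polysomes at day 7, with Atf4 at 0.858 times its total level in controls. Between genotypes, 4 were called higher and 1 lower in day 7 total RNA (Eprs, Mkks, Atf5, Ppp1r15a, Peg10), against 9.54% of tested genes. Atf5 was higher in day 7 polysomal RNA, against 10.7%. At day 5 Ifrd1 was lower in total RNA, against 8.25%, and 1 gene was higher and 1 lower in polysomal RNA (Mkks, Rtl1), against 12.5%. Eprs alone was called for the change in TE, lower at day 7, against 2.07%.

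Between day 5 and day 7 Odc1 was called lower and Oaz2 higher in both fractions and both genotypes, and Srm higher in 3 of the 4 combinations. Day 5 and day 7 libraries may also differ in how and when they were made, and such differences cannot be told apart from age.

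Odc1 in total RNA measured 44.1 and 42.1 FPKM in day 5 controls and 24.4, 24.1 and 28.5 FPKM in day 7 controls (log2 -0.75, SE 0.12, adjusted p = 0.00654). In SMA mice it measured 36.2 and 40.9 FPKM at day 5 and 23.6, 28.9 and 23.0 FPKM at day 7 (log2 -0.62, SE 0.12, adjusted p = 0.0110). In polysomal RNA the log2 changes were -0.85 (SE 0.13, adjusted p = 0.00385) in controls and -0.61 (SE 0.13, adjusted p = 0.0183) in SMA mice. The last call was lost without SMA replicate 1 or 2 of day 5 (adjusted p = 0.0903 and 0.0778) or SMA replicate 1 or 3 of day 7 (adjusted p = 0.0552 and 0.0527), and the control total call without control replicate 1 of day 5 (adjusted p = 0.0514). Every day 7 library was below every day 5 library, and the day 7 level was 0.555 to 0.656 times the day 5 level.

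Oaz2 in total RNA measured 66.9 and 64.1 FPKM in day 5 controls and 95.03, 94.2 and 92.8 FPKM in day 7 controls (log2 0.52, SE 0.04, adjusted p = 0.000578). In SMA mice it measured 60.3 and 62.5 FPKM at day 5 and 97.9, 95.7 and 97.7 FPKM at day 7 (log2 0.66, SE 0.04, adjusted p = 0.000204). These are 1.43-fold and 1.58-fold rises with no overlap between days. In polysomal RNA it rose by log2 0.75 in SMA mice (SE 0.15, adjusted p = 0.0134) and 0.45 in controls (SE 0.15, adjusted p = 0.0466). The last call rested on libraries that differ, since control replicate 1 of day 5 measured 95.03 FPKM and replicate 2 measured 64.1 FPKM. It was 0.17 without replicate 2 (adjusted p = 0.143), and it was lost in 9 of the 10 runs that left out a library and with no filter on low values (adjusted p = 0.109). The SMA polysomal call was lost without SMA replicate 1 of day 5 (log2 0.70, adjusted p = 0.0924).

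Srm in polysomal RNA measured 17.3 and 20.9 FPKM in day 5 controls and 37.0, 28.6 and 34.2 FPKM in day 7 controls, a 1.73-fold rise (log2 0.79, SE 0.13, adjusted p = 0.00430). In SMA mice it rose from 24.1 and 23.2 FPKM to 30.4, 32.5 and 35.7 FPKM (log2 0.47, SE 0.13, adjusted p = 0.0362). In total RNA it rose by log2 0.42 in SMA mice (SE 0.07, adjusted p = 0.00778), and in controls the difference was 0.24 (SE 0.07, adjusted p = 0.0570). The control value was called higher with a correction for transcript length (log2 0.30, adjusted p = 0.0415) and without control replicate 1 of day 5 (log2 0.34, adjusted p = 0.0470), and it ran from 0.13 to 0.34 with single libraries left out. With a correction for transcript length the rises in SMA mice were 0.26 in total and 0.40 in polysomal RNA and were no longer called (adjusted p = 0.0607 and 0.0625). The polysomal call in SMA mice was also lost with no filter on low values (adjusted p = 0.0756) and with same-numbered libraries treated as a block (adjusted p = 0.0968). Between days that block joins different mice that share only a number. It was lost as well in 6 of the 10 runs that left out a library, control replicate 3 of day 7 or any SMA library (log2 0.41 to 0.52).

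Oaz1 did not follow Oaz2 with age. It fell in polysomal RNA of controls by 0.51 on the log2 scale (SE 0.10, adjusted p = 0.00780) and its change was 0.01 in polysomal RNA of SMA mice (95% interval -0.23 to 0.24). In total RNA it was not called, at -0.20 in controls and 0.22 in SMA mice. The ratio of Oaz1 to Oaz2 FPKM in polysomal RNA ran from 3.65 to 5.65 at day 5 and from 2.34 to 2.62 at day 7. Amd1, Azin1, Sms and Sat1 were not called in any of these 4 comparisons. Sms did not overlap between days in SMA mice, with log2 differences of 0.13 in total RNA (adjusted p = 0.109) and 0.32 in polysomal RNA (adjusted p = 0.0998). It was called higher there in total RNA with equal medians, with the length correction and without SMA replicate 1 of day 5 (adjusted p = 0.0265, 0.0252 and 0.0194), and in polysomal RNA with 1 model over all libraries (adjusted p = 0.0283). Each of the other 3 was called in 1 such run, Amd1 lower in control polysomal RNA with 1 model (adjusted p = 0.0491), Azin1 lower in SMA polysomal RNA with quantile normalization (adjusted p = 0.0376) and Sat1 higher in SMA total RNA without SMA replicate 2 of day 5 (adjusted p = 0.0443).

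In counts, 2 of the 8 members were called between days in control total RNA, 3 in SMA total RNA, 4 in control polysomal RNA and 3 in SMA polysomal RNA. All tested genes gave 23.1%, 27.7%, 39.7% and 25.8% in the same order. The difference between days in the genotype effect was called for no member, against 0.125% of tested genes in total and 0.597% in polysomal RNA. At an unadjusted p under 0.05 that difference was present for Oaz2 in total RNA (log2 0.14) and for Oaz1 (log2 0.52) and Sat1 (log2 0.37) in polysomal RNA. At that threshold it was present for 1547 of the 15247 tested genes in total and 2084 in polysomal RNA. Oaz2 in polysomal RNA was called without control replicate 2 of day 5 (log2 0.58, adjusted p = 0.0398).

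Within the list of further genes, Slc3a2, the heavy chain of amino acid transporters, rose in all 4 combinations, by log2 0.32 to 0.43. Oaz3, a further antizyme, rose in both fractions of controls (log2 0.39 and 0.53) and in polysomal RNA of SMA mice (log2 0.33). In controls Azin2 fell in total and polysomal RNA (log2 -0.43 and -0.72), as did Eif5a, whose protein carries the spermidine-derived residue hypusine (log2 -0.42 and -0.44). The counts of the list were 2 higher and 3 lower in control total RNA, 1 and 4 in SMA total RNA, 4 and 6 in control polysomal RNA and 3 and 2 in SMA polysomal RNA. These are 5, 5, 10 and 5 of 25 genes, beside 23.1%, 27.7%, 39.7% and 25.8% of all tested genes. The others called were Atp13a2, Mri1, Slc18b1, Mat2a, Apip, Adi1, Paox, Smox, Amd2 and Atp13a3, each in 1 or 2 combinations.

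**Figure D4:**
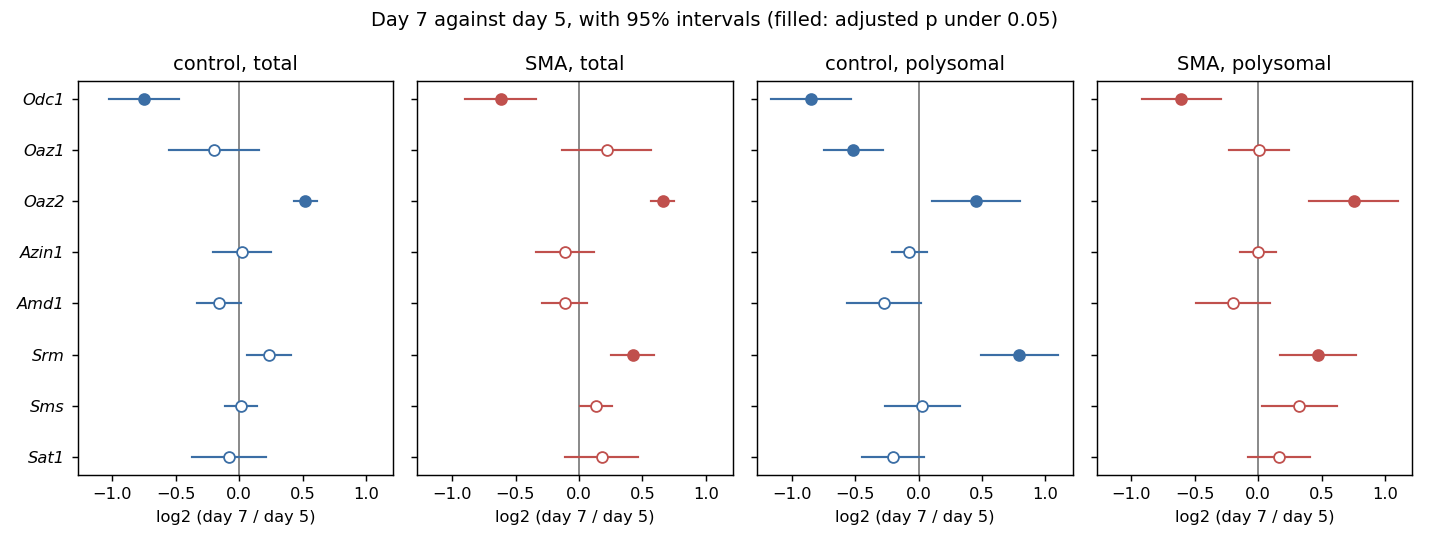
Log2 ratio of day 7 to day 5 FPKM (horizontal axis) for each member by genotype and fraction. Points are estimates with 95% intervals, filled where the adjusted p was under 0.05. Odc1 lies to the left of 0 and Oaz2 to the right in all 4 panels, while Oaz1 lies at -0.51 in control polysomal RNA and 0.01 in SMA polysomal RNA.

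Over the 20 libraries, each member was also set against all tested genes by the Pearson correlation of log2 FPKM, as a description, since libraries share stage, fraction and genotype. The closest pairs were Ppp2r5c (r = 0.978) and Ybx1 (0.976) for Amd1, Acot1 (0.960) and Fen1 (0.955) for Odc1, and Idh3g (0.952) and Tmeff2 (0.952) for Oaz2. Clcn3 (0.949) and Stard7 (0.930) were closest to Azin1, Lingo1 (0.945) and Lin37 (0.932) to Srm, and Dctpp1 (0.932) and Cinp (0.898) to Oaz1. Sms (Pmpca, 0.813, and Gm15063, 0.795) and Sat1 (Mkln1os, 0.904, and Gm5914, 0.873) had the loosest partners. No member was among the partners of another.

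Cell type markers were read in the same libraries. Neurons (Rbfox3, Syt1, Snap25, Tubb3, Map2) and astrocytes were detected as a brain sample requires, although Tubb3 was listed at 0 in both control day 5 polysomal libraries. Of the 3 endothelial markers, all lower in SMA mice, Cldn5 was called in all 4 comparisons and Pecam1 and Flt1 in all but day 5 polysomal RNA. Their summed level in total RNA was 63.1 and 54.8 FPKM in day 5 controls and 26.0 and 25.6 FPKM in day 5 SMA mice, and 33.7, 38.9 and 44.0 FPKM against 19.7, 22.3 and 19.8 FPKM at day 7. Of the 6 erythroid markers tested, 1 was called lower at day 5 in total RNA (Hba-a2) and 1 at day 7 in polysomal RNA (Hbb-bt). All tested genes called between genotypes were 8.25% and 12.5% in total and polysomal RNA at day 5, and 9.54% and 10.7% at day 7. Single genes of other lists were called as well. Of the 4 microglial markers, P2ry12 alone was called lower in SMA mice, in total RNA at day 5 (log2 -0.56) and day 7 (log2 -0.41) and in polysomal RNA at day 5 (log2 -0.43), where 2, 1 and 3 of the 4 had a log2 difference above 0 (list medians 0.00, -0.13 and 0.06). Of the 5 neuronal markers, Map2 alone was called in total RNA, higher at day 5 (log2 0.37) and day 7 (log2 0.11), where 2 and 1 of the 5 were above 0 (list medians -0.02 and -0.09). In day 5 polysomal RNA, the comparison in which Oaz1 was called, Tubb3 was called higher against its listing at 0 in controls, and 4 of the 5 were above 0 (list median 0.32). Tubb3 was also called in the change in TE at day 5. Pdgfra alone of the 4 oligodendrocyte lineage markers was called, higher in total RNA at day 5 (log2 0.30), and the other 3 were below 0 there (list median -0.15).

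Between days, markers of neurons and microglia were higher and single markers of endothelium and astrocytes lower. Of the 5 neuronal markers, 4 were called higher at day 7 in control total RNA, 3 in SMA total RNA, 5 in control polysomal RNA (Tubb3, listed at 0 at day 5, among them) and 2 in SMA polysomal RNA. Of the 4 microglial markers (Csf1r, P2ry12, Cx3cr1 and Tmem119), 4, 4, 3 and 4 were called higher in the same order. All tested genes called, in either direction, were 23.1%, 27.7%, 39.7% and 25.8% in that order. The microglial sum in total RNA of controls was 27.0 and 28.5 FPKM at day 5 and 50.8, 51.4 and 43.8 FPKM at day 7. Endothelial Cldn5 was called lower at day 7 in control total RNA (log2 -0.68) and control polysomal RNA (log2 -1.12), and all 3 endothelial markers were below 0 in total RNA of both genotypes. Astrocyte Aldh1l1 was called lower in SMA total RNA (log2 -0.45) and control polysomal RNA (log2 -0.52). Of the 6 erythroid markers tested, Alas2 and Hba-a2 were called between days in SMA total RNA, 1 in each direction. The part of these cell types in the differences between days of Odc1, Oaz2 and Srm was not tested.

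The oligodendrocyte markers, of which Mbp was the most abundant, varied more between mice than between genotypes. Their sum in day 7 total RNA was 163, 338 and 334 FPKM in controls and 392, 339 and 219 FPKM in SMA mice. SMA replicate 1, with the highest sum, also had the highest Sat1, whereas among controls replicate 1, with the lowest sum, had the highest Sat1 (31.2 FPKM). The erythroid sum differed between the day 5 SMA mice, at 1742 and 3420 FPKM in total RNA, and Oaz1 was also lower in the first of them (252 against 328 FPKM). In polysomal RNA the order was opposite, with erythroid sums of 1023 and 2462 FPKM and Oaz1 at 294 and 247 FPKM. The part of the oligodendrocyte and erythroid cells in the results for the members, Amd1 on polysomes among them, was not tested.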

How the data were processed

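Brain total and polysomal RNA libraries (TruSeq Stranded Total RNA, 100 nt reads) were aligned by the authors with TopHat2 2.0.14 to GRCm38.p4 with Gencode M6, and the deposited FPKM values were computed by the authors with Cufflinks 2.2.1, 1 value per gene and library. No counts are given, so depth per gene is unknown and no detection limit was set. Here log2(FPKM + 0.1) was analysed with limma 3.58.1 in R 4.3.3 (eBayes with a trend) for genes averaging 1 FPKM or more over the libraries. Fold changes are on this scale and understate those of low genes. SMA against control was fitted per day and fraction, polysomal against total and the change in TE per day, and day 7 against day 5 per fraction, with Benjamini-Hochberg adjustment over all tested genes, 16 comparisons in all. The study's CuffDiff and Xtail could not be run on FPKM. The fits were tested on simulated data. Leaders and frameshift sites were read from Gencode M21 transcripts. Named genes were the 8 members, called genes of the pathway and comparison lists, near copies and the 2 most correlated genes of each member. Members and lists were chosen with earlier results of these data known. The labels do not tie total and polysomal libraries to mice, and same-numbered libraries were not treated as pairs. Alternatives were other pseudocounts (1 and 0.01), filters, scalings, variance models, length correction, a replicate block and leaving out libraries. Leaving out a day 5 library leaves a single library in its group, and the spread then comes from the other groups of the fit.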

Additional observations from a re-analysis of the deposited data

Results flagged for a closer look

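Srm was singled out because its polysomal level relative to total RNA differed between genotypes at day 5, by 0.55 on the log2 scale (SE 0.17, adjusted p = 1.0 by limma). Its polysomal libraries measured 17.3 and 20.9 FPKM in controls and 24.1 and 23.2 FPKM in SMA mice, and its total libraries 28.8 and 24.9 FPKM and 22.6 and 22.7 FPKM.

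Oaz2 in total RNA was singled out because all SMA libraries lay below all control libraries at day 5 (60.3 and 62.5 against 66.9 and 64.1 FPKM) and above them at day 7 (97.9, 95.7 and 97.7 against 95.03, 94.2 and 92.8 FPKM). The difference between days was 0.14 on the log2 scale (95% interval 0.01 to 0.27, adjusted p = 0.486 by limma). Its interval left out 0, and it did not pass after adjustment. Groups of 2 or 3 libraries were too small for a test of single outlying libraries.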

How the results depend on the processing

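Of 176 recomputed counts of members called, left-out libraries set apart, 158 stayed within 1.5 times the count reported. These hold every count for SMA against control in day 7 total RNA, for polysomal against total and the change in TE at day 7 and for the comparisons between days. No gene value that was called, in the main or the alternative fit, changed sign. With 1 model over all libraries, members called numbered 1 (Oaz1) rather than 0 in day 5 total RNA and 3 (Srm, Odc1, Oaz1) rather than 1 in day 5 polysomal RNA for SMA against control, and 3 (Srm, Azin1, Amd1) and 1 (Amd1) rather than 0 for polysomal against total in day 5 controls and SMA mice. With the transcript length correction they numbered 1 (Sat1) in day 5 total RNA, 2 (Srm, Oaz1) in day 5 polysomal RNA, 0 for the change in TE at day 5, and 1 (Amd1) for polysomal against total in each genotype at day 5. Without a filter on low values, 0 were called in day 5 polysomal RNA and 2 (Sat1, Amd1) in day 7 polysomal RNA. Quantile normalization gave 0 in day 5 polysomal RNA, and no trend in the variance gave 2 in day 7 polysomal RNA.

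Same-numbered total and polysomal libraries matched in sex for all 10 numbers, but they were not treated as pairs, since the labels do not tie them. Their deviations correlated between -0.01 and 0.01 in day 7 controls. In day 7 SMA mice they correlated at 0.11, 0.07 and 0.11, above the highest values with other numbers (-0.05, -0.03 and -0.02). With 2 libraries per group at day 5 the deviations mirror each other, so they cannot tell whether the numbers are pairs. The pairing was thus not settled. Deviations of same-numbered control and SMA libraries correlated between -0.09 and 0.03. For polysomal against total and the change in TE, the replicate block was the number within each genotype. In the comparisons between genotypes or days it was the number alone, which joins different mice with no known link. With the replicate block, 0 members were called rather than 1 for day 7 polysomal RNA (Sat1) and for the change in TE at day 5 (Srm), and with the block and the length correction 0, 0 and, in day 5 polysomal RNA, 2. The block also called Oaz1 lower on polysomes in day 7 SMA mice (adjusted p = 0.0398), Smox lower on polysomes in day 7 controls (adjusted p = 0.0463), Smox higher in the change in TE at day 7 (log2 0.37) and Sms higher between days in SMA polysomal RNA (adjusted p = 0.0286, and 0.0369 with the length correction), and it lost the rises between days of Oaz2 in control polysomal RNA (adjusted p = 0.0740) and of Srm in SMA polysomal RNA (adjusted p = 0.0968). With the length correction it also lost Oaz2 on polysomes in day 7 SMA mice and Srm between days in SMA total RNA (adjusted p = 0.0647 and 0.134). Over all tested genes the block moved the calls in polysomal against total RNA from 430 to 113 in day 5 controls and from 2070 to 3057 in day 7 controls.

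With single libraries left out, member counts ranged from 0 to 3 in day 5 total RNA, from 0 to 4 in day 5 polysomal RNA, from 0 to 1 in day 7 polysomal RNA, from 0 to 2 for the change in TE at day 5, from 1 to 4 for polysomal against total in day 7 SMA mice, from 0 to 3 for day 7 against day 5 in SMA polysomal RNA, and from 0 to 1 for the difference between days in polysomal RNA. Of the members and Smox, the following calls within day 7 were kept in every alternative run. Between genotypes these were Sms, Sat1 and Smox in total RNA and Smox in polysomal RNA. On polysomes they were Amd1 in both genotypes and Azin1 in controls. Counts of reads were not given and day 5 has 2 mice per group, which limits precision.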

Other observations

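Near copies of the members were low. The pseudogenes Oaz1-ps and Oaz2-ps reached at most 1.09 FPKM and 3.20 FPKM in any library, and Amd-ps1, Amd-ps2, Amd-ps4 and Amd-ps5 at most 0.10 FPKM. Amd2 ran from 0.59 to 1.54 FPKM, and the lowest Amd1 value was 9.07 FPKM. Whether reads of Oaz1, Oaz2 and Amd1 were shared with or lost to near copies was not tested.

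The ratio of Azin1 to Odc1 FPKM in polysomal RNA ran from 3.21 to 4.30 in the 4 libraries of day 5 and from 4.79 to 6.86 in the 6 of day 7. The ratio of Sms to Srm in polysomal RNA ran from 3.33 to 5.54 at day 5 and from 2.50 to 3.28 at day 7.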
